A study of Arabidopsis thaliana with 15 samples.

Results

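The genes of the autophagy machinery were described here across 5 groups of Arabidopsis thaliana arrays. The set comprised 38 loci: the *ATG1* to *ATG18* families, *ATG11*, *ATG13*, *ATG101* and the cargo receptor gene *NBR1*. They were chosen by name and not by a measured value, although earlier results of these data were known. Probes were assigned to them through the accessions in the array files. Of the 38 loci, 37 had a probe, out of 25410 loci with a probe on the array. No probe could be assigned to *ATG18b* (AT4G30510), which is not analysed here. The probe of *ATG18e* (AT5G05150) did not rise well above background on any array and was not tested. The other 36 were well above background on all 15 arrays and were tested in every comparison, so that no member entered through a group in which it was high. Among these 36, 8 loci carry no symbol in the reference table used here and are given by locus tag, namely AT3G61960, AT3G53930, AT2G37840, AT1G49180, AT3G18770, AT2G44140, AT3G59950 and AT5G50230. They belong to the *ATG1*, *ATG4*, *ATG13* and *ATG16* families of the selection. They form a group of their own below, so the groups by role hold only members with a symbol.

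The series asks how the NAC transcription factor ANAC046 affects leaf senescence. All plants were in the Col-0 background, and each group had 3 one-color arrays. At 50 days after sowing (DAS), leaves of soil-grown plants were sampled from OX plants (35S:ANAC046:NOS), which express ANAC046 from the constitutive 35S promoter, and from WT plants. At 5 days after the start of dark treatment (DAD), samples were taken from SRDX plants (35S:ANAC046-SRDX:NOS), from KO plants (*anac046*) and from WT plants, all grown on MS agar and covered with foil. SRDX plants express, from the same promoter, ANAC046 fused to a short repression motif. The KO plants were 1 transposon-tagged line. The 3 OX arrays and the 3 SRDX arrays came from 3 independent lines each, called line 1, 2 and 3 after their replicate numbers. The labels name the dark-treated samples seedlings, whereas the methods name leaves, and this could not be settled. By the methods, plants were put in darkness at a younger age than 50 DAS.

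Autophagy carries cytoplasm, proteins and organelles to the vacuole inside double-membrane vesicles, the autophagosomes. A kinase complex around ATG1 and ATG13 starts the process, ATG9 and the ATG2-ATG18 module supply membrane lipids, a lipid kinase complex with ATG6 marks the membrane, and ubiquitin-like conjugation pathways attach ATG8 to the lipid phosphatidylethanolamine. In leaves, autophagy is known to operate during senescence and carbon starvation in darkness, when the contents of cells are recycled.

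Signals are given on the log2 scale relative to the median of an array, after quantile normalization, and changes are differences of group means. A gene passed the limit when its adjusted p-value was under 0.15 (limma with Benjamini-Hochberg adjustment over all features tested), the false discovery rate of the study. Spots well above background made up 62.2 to 68.7% on the arrays at 50 DAS and, at 5 DAD, 68.4 to 77.6% in SRDX, 67.0 to 68.7% in KO and 76.3 to 80.9% in WT. SRDX line 3 shared a slide with the KO arrays and had the 68.4%. The number of arrays limits the precision. The methods call the replicates biological, and in OX and SRDX they are independent lines. For WT and KO nothing names separate cultures, so there the p-values rest on a spread whose source is not given. WT arrays shared no slide with other genotypes, so that in every comparison with WT the slide and the genotype cannot be told apart. The 8 markers of green tissue were well above background on all 15 arrays. Of 8 root markers, *CASP1* and *IRT1* were nowhere well above background, and those well above it numbered 4 to 5 in SRDX, 3 in KO and 5 to 6 in WT at 5 DAD, against 1 to 2 in OX and 1 to 3 in WT at 50 DAS. In such samples of whole tissue, fewer cells of a type and less RNA per cell cannot be told apart.

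The *ANAC046* signal was 2.64, 8.95 and 9.01 in OX lines 1 to 3, against 0.42, 0.54 and 0.77 in WT. Line 1 therefore carried far less of the transcript than lines 2 and 3, although it lay above every WT array. At 5 DAD the *ANAC046* signal was 6.29, 6.42 and 6.29 in SRDX and 5.11, 5.35 and 5.22 in WT. No KO array showed the probe well above background, and the signal was at least 272-fold lower than in WT (WT mean against the lowest signal of probes well above background on the KO arrays). The SRDX probe signal does not separate the transgene from the endogenous gene.

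At 5 DAD, many ATG genes were lower in SRDX and KO plants than in WT. In SRDX, 14 of the 36 tested members fell and none rose past the limit (38.9% against 8.8% of all features lower, and 0% against 11.6% of all features higher). In KO, 16 fell and none rose (44.4% against 14.2% of all features lower, and 0% against 18.1% of all features higher). The unadjusted p-value was under 0.05 for no member with a higher mean in SRDX or in KO. The median log2 change of the members was -0.51 in SRDX and -0.52 in KO, whereas the median over all features was -0.04 in SRDX and 0.03 in KO. The means of 31 of the 36 members were lower than in WT in SRDX and likewise in KO, and the other 5 were higher, whereas 46.8% of all features were higher on average in SRDX and 51.9% in KO. All 3 SRDX arrays lay below all 3 WT arrays for 22 members (61.1% against 15.1% of all features), and all 3 KO arrays for 17 members (47.2% against 20.6%). SRDX and KO were set against the same 3 WT arrays, so their changes are not independent of each other. Of the members that fell, 13 did so in SRDX and in KO, which was 92.9% of the SRDX calls and 81.3% of the KO calls. They were *ATG7*, *ATG8h*, *ATG101*, *ATG11*, *ATG9*, *ATG18a*, *ATG18d*, *ATG18f*, *ATG18h*, *ATG6*, *ATG5*, AT3G53930 and AT3G59950. The same overlap was not counted over all features, so it is not read as particular to these genes. The calls of *ATG7*, *ATG8h*, *ATG101* and *ATG11* held in both genotypes whichever array was left out, as did those of *ATG9*, *ATG18a* and *ATG18h* in KO and of *ATG18d* in SRDX, and each other call was lost without at least 1 array. In 1 fit of all 15 arrays, however, *ATG101* was not past the limit in either genotype (adjusted p = 0.15006, just over the limit, in SRDX and 0.195 in KO). The counts were smallest without WT replicate 2, with 5 members in SRDX and 7 in KO (334 and 1242 of 25632 features lower). With the slide as a random block, which cannot separate the slide of WT from genotype, 11 members fell in SRDX and 11 in KO. Under that block 1458 and 1966 of 25463 features were lower. At a limit of 0.05 the counts were 7 and 8, against 577 and 1197 features lower.

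**Figure D1:**
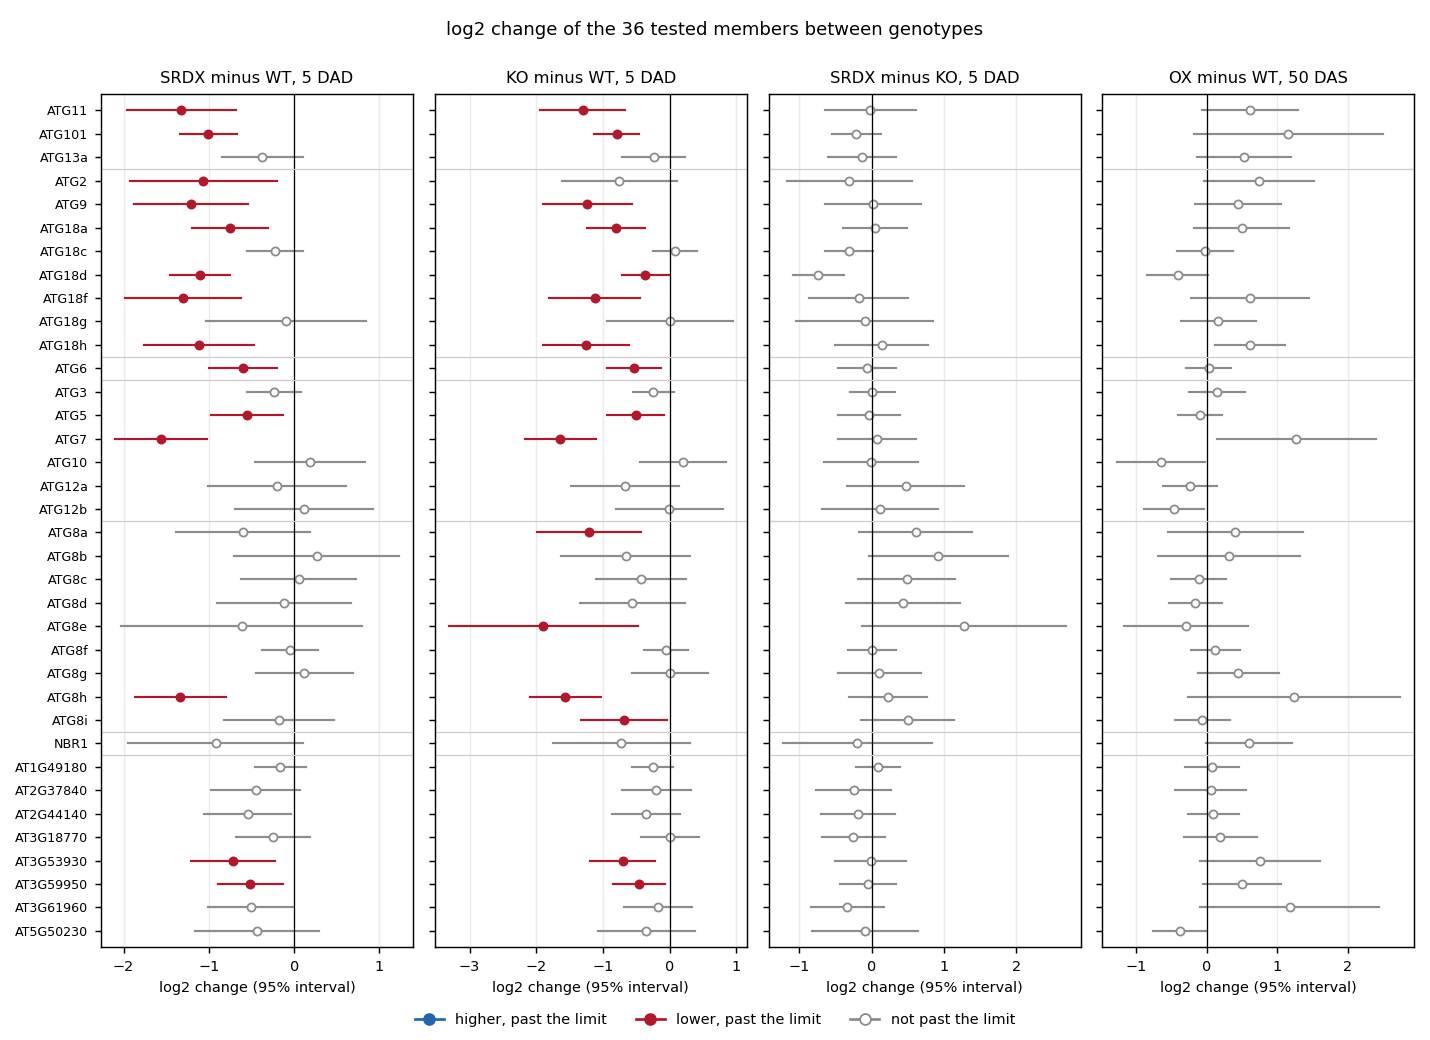
Log2 change of the 36 tested members (rows, grouped by role, with loci without a symbol at the bottom) in SRDX minus WT, KO minus WT and SRDX minus KO at 5 DAD and in OX minus WT at 50 DAS. Points are differences of group means (n = 3 arrays each), bars are 95% intervals of limma's fit, and filled points are past the limit: 14 are lower in SRDX, 16 are lower in KO, and none is past the limit in SRDX minus KO or OX minus WT.

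Among the genes of the initiation kinase complex with a symbol, *ATG101* and *ATG11* fell in both genotypes. *ATG101* encodes a subunit that stabilizes ATG13 in this complex. Its signal was 5.62, 5.59 and 5.61 in SRDX, 5.94, 5.60 and 5.91 in KO and 6.54, 6.71 and 6.59 in WT. Neither genotype overlapped with WT, and the 3 SRDX lines were nearly equal. The log2 change of *ATG101* was -1.01 in SRDX (standard error 0.15, adjusted p = 0.0171) and -0.80 in KO (standard error 0.15, adjusted p = 0.0194). *ATG11* encodes a scaffold protein that links the kinase complex to the forming membrane. Its signal was 4.48, 5.03 and 3.94 in SRDX, 4.24, 4.86 and 4.40 in KO and 5.84, 5.79 and 5.78 in WT. The WT arrays were close together and above every other dark-treated array, while the SRDX lines spread over more than 1 log2 unit. *ATG11* changed by -1.32 in SRDX (standard error 0.28, adjusted p = 0.0340) and by -1.31 in KO (standard error 0.28, adjusted p = 0.0254). The third gene of this group, *ATG13a*, a regulatory subunit that binds ATG1, did not pass the limit, with -0.37 in SRDX and -0.24 in KO.

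The genes for membrane delivery and lipid transfer gave the most calls, with 6 of 8 tested lower in SRDX and 5 of 8 lower in KO. *ATG9* encodes the membrane-spanning protein of the machinery, which travels on small vesicles. Its signal was 2.7, 2.51 and 1.74 in SRDX, 1.82, 2.66 and 2.40 in KO and 3.57, 3.58 and 3.43 in WT. It changed by -1.21 in SRDX (2.32-fold lower, adjusted p = 0.0466) and by -1.23 in KO (2.35-fold lower, adjusted p = 0.0338). No SRDX or KO array reached the lowest WT array of *ATG9*. *ATG2*, which encodes the lipid transfer protein that acts with ATG18, was -0.81, -0.39 and -1.46 in SRDX, -1.33, 0.11 and -0.51 in KO and 0.28, 0.21 and 0.05 in WT. It was past the limit in SRDX only, at -1.06 (standard error 0.38, adjusted p = 0.124), with -0.76 in KO (adjusted p = 0.199). The difference of SRDX from KO for *ATG2* was -0.31 (adjusted p = 0.799), so the 2 genotypes were not shown to differ.

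The ATG18 proteins bind a phosphoinositide on the growing membrane, and their genes did not behave alike. *ATG18a*, *ATG18d*, *ATG18f* and *ATG18h* fell in both genotypes, whereas *ATG18c* and *ATG18g* did not pass the limit in either. *ATG18f* was 3.51, 4.0 and 3.04 in SRDX, 3.16, 4.13 and 3.81 in KO and 4.76, 4.94 and 4.77 in WT. *ATG18h* was 3.40, 3.75 and 2.63 in SRDX, 2.81, 3.40 and 3.15 in KO and 4.38, 4.44 and 4.30 in WT. For *ATG18f* and *ATG18h* every SRDX and every KO array lay below every WT array. *ATG18f* changed by -1.3 in SRDX (standard error 0.30, adjusted p = 0.0421) and -1.12 in KO (standard error 0.30, adjusted p = 0.0452). *ATG18h* changed by -1.11 in SRDX (standard error 0.28, adjusted p = 0.0533) and -1.25 in KO (standard error 0.28, adjusted p = 0.03). SRDX line 3 was the lowest SRDX array for both genes.

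*ATG18a*, a member of the family whose loss is known to block autophagosome formation in Arabidopsis, was 5.47, 5.87 and 5.20 in SRDX, 5.30, 5.60 and 5.49 in KO and 6.23, 6.33 and 6.24 in WT. It changed by -0.75 in SRDX (standard error 0.19, adjusted p = 0.0545) and by -0.80 in KO (standard error 0.19, adjusted p = 0.0353). The signal of *ATG18d* was -1.3, -1.57 and -1.62 in SRDX, -0.82, -0.73 and -0.73 in KO and -0.47, -0.22 and -0.49 in WT, so the 3 groups did not overlap. The log2 change of *ATG18d* was -1.10 in SRDX (standard error 0.16, adjusted p = 0.0153) and -0.37 in KO (standard error 0.16, adjusted p = 0.141). The KO call was lost without any 1 of the KO or WT arrays, with adjusted p-values of up to 0.393. By contrast, *ATG18c* changed by -0.23 in SRDX and 0.08 in KO, and *ATG18g* by -0.09 in SRDX and 0.00311 in KO.

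*ATG6*, which encodes the plant counterpart of Beclin in the lipid kinase complex, fell by 0.60 in SRDX (adjusted p = 0.0783) and by 0.53 in KO (adjusted p = 0.0777) on the log2 scale. Its signal was 1.74, 1.99 and 1.46 in SRDX, 1.63, 1.90 and 1.86 in KO and 2.31, 2.45 and 2.22 in WT.

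In the conjugation machinery, *ATG7* stood out from the other 5 genes with a symbol. *ATG7* encodes the E1-like enzyme that activates ATG8 and ATG12. Its signal was 5.11, 5.13 and 4.40 in SRDX, 4.53, 5.09 and 4.81 in KO and 6.36, 6.56 and 6.41 in WT. No array of either genotype came within 1 log2 unit of the lowest WT array. *ATG7* was 2.95-fold lower in SRDX (log2 change -1.56, standard error 0.24, adjusted p = 0.0176) and 3.11-fold lower in KO (log2 change -1.64, standard error 0.24, adjusted p = 0.0137). *ATG5*, whose protein is joined to ATG12, changed less, by -0.55 in SRDX (adjusted p = 0.110) and -0.51 in KO (adjusted p = 0.0980). The E2-like enzymes did not pass the limit. *ATG3*, the enzyme for ATG8, changed by -0.23 in SRDX and -0.24 in KO, and *ATG10*, the enzyme for ATG12, by 0.19 in SRDX and 0.20 in KO. Neither gene for the ubiquitin-like ATG12 passed it. *ATG12a* changed by -0.20 in SRDX and -0.67 in KO, and *ATG12b* by 0.11 in SRDX and -0.00140 in KO.

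**Figure D2:**
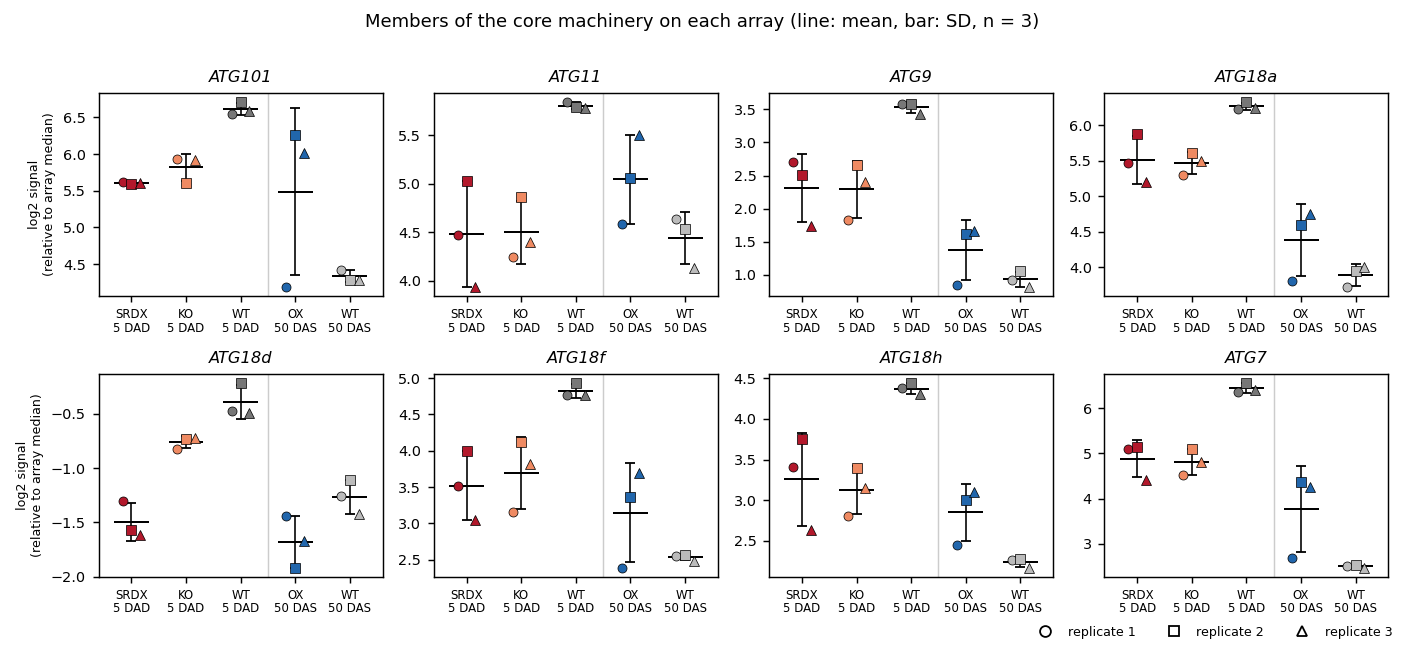
Log2 signal of 8 members on each of the 15 arrays, with SRDX, KO and WT at 5 DAD left of the grey line and OX and WT at 50 DAS right of it. Symbols mark the replicate number, and lines and bars give mean and SD (n = 3). In every panel no SRDX or KO array reaches the WT arrays at 5 DAD, and OX line 1 lies near the WT arrays at 50 DAS in most panels.

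The 9 genes of the *ATG8* family encode the ubiquitin-like proteins that are attached to the autophagosome membrane and hold cargo receptors. Only *ATG8h* fell in both genotypes. Its signal was 7.54, 7.09 and 6.87 in SRDX, 7.30, 6.65 and 6.88 in KO and 8.32, 8.55 and 8.65 in WT. *ATG8h* was 2.52-fold lower in SRDX (log2 change -1.33, standard error 0.23, adjusted p = 0.0234) and 2.95-fold lower in KO (log2 change -1.56, standard error 0.23, adjusted p = 0.0142). The change kept its side of the limit when each dark-treated array was left out in turn. *ATG8h* and *ATG8i* form a branch of the family whose proteins end in the glycine used for conjugation.

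A further 3 *ATG8* genes passed the limit in KO but not in SRDX. *ATG8e* was 8.99, 8.20 and 9.11 in SRDX, 9.16, 6.53 and 6.77 in KO and 9.18, 9.51 and 9.45 in WT. KO replicate 1 was thus just below the lowest WT array, and the other KO arrays were far below it. *ATG8e* changed by -0.62 in SRDX (adjusted p = 0.569) and by -1.90 in KO (standard error 0.62, adjusted p = 0.0751). *ATG8a* was 7.32, 6.75 and 7.14 in SRDX, 7.34, 5.93 and 6.13 in KO and 7.61, 7.73 and 7.68 in WT, with changes of -0.60 in SRDX (adjusted p = 0.313) and -1.21 in KO (standard error 0.35, adjusted p = 0.0535). *ATG8i* was 8.04, 7.47 and 7.99 in SRDX, 7.95, 6.88 and 7.17 in KO and 7.90, 8.12 and 8.02 in WT, with changes of -0.18 in SRDX (adjusted p = 0.721) and -0.68 in KO (standard error 0.28, adjusted p = 0.135). In all these genes KO replicate 1 lay above KO replicates 2 and 3, and for *ATG8i* it lay within the WT range. The *ATG8i* call was lost when any WT array, KO replicate 2 or KO replicate 3 was left out.

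The other *ATG8* genes did not pass the limit in either genotype. In SRDX their changes were 0.26 for *ATG8b*, 0.06 for *ATG8c*, -0.12 for *ATG8d*, -0.05 for *ATG8f* and 0.12 for *ATG8g*. In KO they were -0.66 for *ATG8b*, -0.43 for *ATG8c*, -0.56 for *ATG8d*, -0.05 for *ATG8f* and 0.01 for *ATG8g*. The SD within a group was widest in KO for *ATG8e*, at 1.46 (n = 3), against 0.49 in SRDX and 0.18 in WT at 5 DAD.

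**Figure D3:**
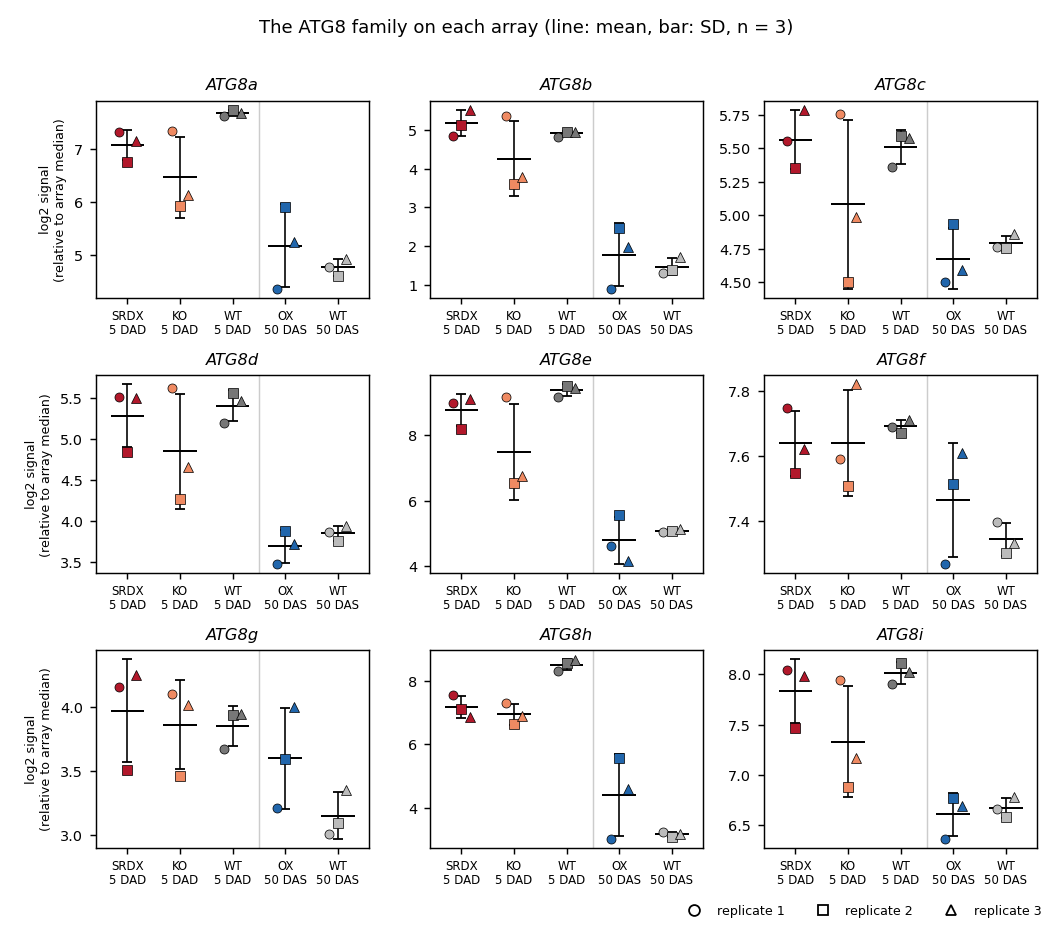
Log2 signal of the 9 *ATG8* genes on each of the 15 arrays, in the group order SRDX, KO and WT at 5 DAD and OX and WT at 50 DAS, with mean and SD (n = 3). KO replicate 1 (orange circle) lies above KO replicates 2 and 3 for *ATG8a*, *ATG8b*, *ATG8c*, *ATG8d*, *ATG8e*, *ATG8g*, *ATG8h* and *ATG8i*, and WT is higher at 5 DAD than at 50 DAS in every panel.

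*NBR1* encodes a receptor that binds ubiquitin-tagged cargo and ATG8 and is itself degraded with its cargo. Its signal was 8.29, 9.58 and 8.10 in SRDX, 8.11, 9.60 and 8.86 in KO and 9.52, 9.73 and 9.48 in WT. Replicate 2 of both genotypes was within the WT range and the other arrays were below it. The changes of *NBR1* were -0.92 in SRDX (standard error 0.45, adjusted p = 0.242) and -0.72 in KO (standard error 0.45, adjusted p = 0.295). Among the 8 loci without a symbol, AT3G53930 fell by 0.72 in SRDX (adjusted p = 0.0809) and by 0.70 in KO (adjusted p = 0.0633) on the log2 scale. AT3G59950 fell by 0.51 in SRDX (adjusted p = 0.104) and by 0.46 in KO (adjusted p = 0.101) on that scale. The other 6 did not pass the limit, and their changes ended at -0.54 for AT2G44140 and -0.16 for AT1G49180 in SRDX and at -0.35 for AT2G44140 and 0.00669 for AT3G18770 in KO.

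The arrays of a genotype differed in which members were low. In KO replicate 1, the median difference from the WT mean was -0.07 for the 9 *ATG8* genes and -0.53 for the other 27 members. In KO replicate 2 it was -1.14 for the *ATG8* genes and -0.34 for the others, and in KO replicate 3 it was -0.84 and -0.47. In SRDX the medians of the *ATG8* genes were 0.03, -0.55 and -0.03 in lines 1 to 3, and those of the other members -0.69, -0.34 and -0.83. SRDX lines 1 and 3 and KO replicate 1 thus had *ATG8* genes near WT and other members below it, while in SRDX line 2 and KO replicates 2 and 3 the *ATG8* genes were the lower ones. SRDX lines 1 and 3 lay on different slides, and the 3 KO arrays shared a slide. The median signal over background was 9.83 and 10.15 in SRDX lines 1 and 3 and 9.14 in KO replicate 1. It was lower on the arrays with low *ATG8* genes, at 8.26 in SRDX line 2 and 5.88 and 5.17 in KO replicates 2 and 3. The part of this signal in the split between arrays was not tested.

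**Figure D4:**
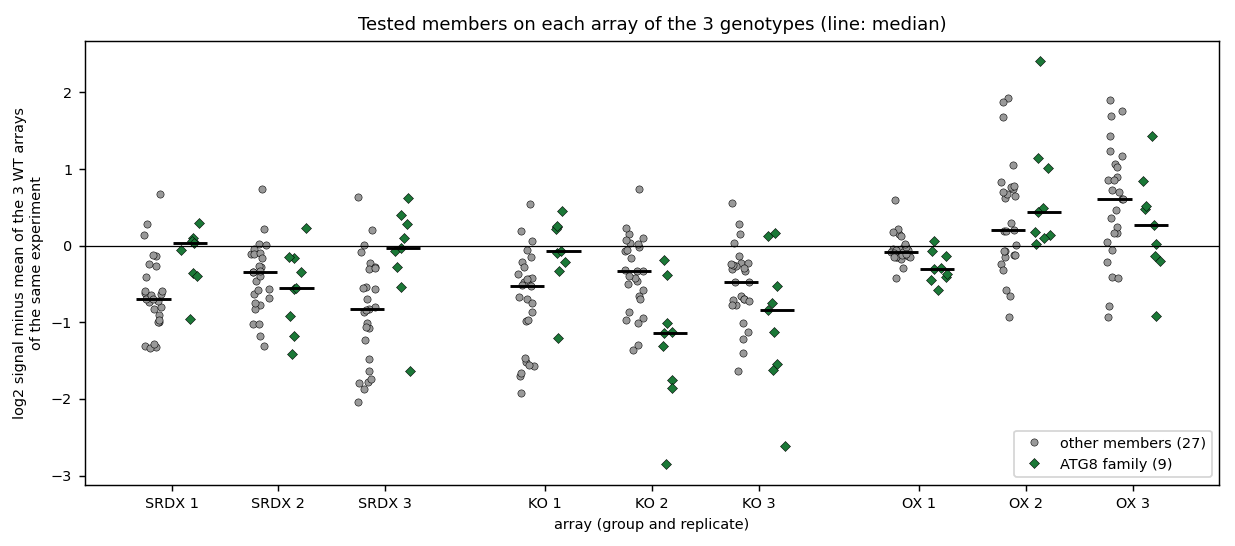
Difference of each tested member from the mean of the 3 WT arrays of the same experiment, on each SRDX, KO and OX array (log2 scale). Diamonds are the 9 *ATG8* genes, circles the 27 other members and lines their medians, which for the *ATG8* genes were -0.07, -1.14 and -0.84 in KO replicates 1 to 3.

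KO plants carry an insertion in *ANAC046*. The study expects SRDX plants, by repressing ANAC046 targets, to show loss of ANAC046 and also of factors redundant with it. SRDX and KO were compared directly to see where the members differ between them. No member passed the limit, while 0.141% of all features were higher and 0.126% lower in SRDX than in KO. At an unadjusted p-value under 0.05, no member was higher and 1 was lower, against 4.81% and 7.16% of all features. With Storey's q-values, likewise, no member was higher and 1 was lower, against 0.444% and 0.566%. All SRDX arrays lay above KO for no member and below KO for 2 (3.61% and 7.96% of all features), and the mean of 17 members was higher (44.7% of all features). The member past the unadjusted threshold was *ATG18d*, with a log2 difference of -0.74 (95% interval -1.09 to -0.38, adjusted p = 0.181). Every SRDX line was below every KO array of *ATG18d*, by the values given above. Without SRDX line 3, the line that shared a slide with KO, it was past the limit at -0.67 (adjusted p = 0.0629). No slide held both SRDX and KO arrays in that fit, which therefore cannot separate a slide effect from a genotype effect. Calls over all features were also far more numerous in it, with 2090 higher and 1332 lower of 26060, against 36 and 32 with all arrays. No conclusion on *ATG18d* is drawn from it. Within the slide shared by SRDX line 3 and KO, the difference of that line from the KO mean was -0.86 for *ATG18d*.

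All 9 *ATG8* genes had a mean in SRDX at or above that in KO, but no difference passed the limit. The difference was 1.28 for *ATG8e* (95% interval -0.14 to 2.69, adjusted p = 0.453), 0.92 for *ATG8b* (-0.04 to 1.89, adjusted p = 0.433), 0.61 for *ATG8a* (-0.18 to 1.39, adjusted p = 0.519) and 0.50 for *ATG8i* (-0.14 to 1.14, adjusted p = 0.515). It was 0.48 for *ATG8c*, 0.43 for *ATG8d*, 0.23 for *ATG8h*, 0.11 for *ATG8g* and 4.45e-05 for *ATG8f*, and -0.20 for *NBR1*. The interval of *ATG8e* reaches 2.69 log2 units, so equal levels were not shown. The outcome depended on KO replicate 1. Its median signal over background was 9.14, against 5.88 and 5.17 in KO replicates 2 and 3. A fit without KO replicate 1 therefore rests on the KO arrays with the weaker signal, whose part in the outcome was not tested. In that fit, 6 members passed the limit in SRDX against KO, 5 higher and 1 lower, against 3.74% and 2.95% of all features. *ATG8e* (2.12, adjusted p = 0.0406), *ATG8b* (1.48, adjusted p = 0.0428), *ATG8a* (1.04, adjusted p = 0.0612), *ATG8c* (0.82, adjusted p = 0.114) and *ATG8i* (0.81, adjusted p = 0.127) were then higher in SRDX, and *ATG18d* was lower (-0.77, adjusted p = 0.0882). *ATG18c*, with a difference of -0.31 (95% interval -0.64 to 0.02, adjusted p = 0.445), had all SRDX lines below all KO arrays.

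Marker genes of senescence and of green tissue differed between the same groups. Of 6 senescence markers, 3 were lower in SRDX (*SGR1*, *NYC1* and *ORE1*) and 5 in KO, where *SEN1* did not pass the limit. The summed signal of the 6 markers, relative to the array median, was 2339 to 2664 in SRDX, 2446 to 2561 in KO and 3238 to 3651 in WT. Of 8 markers of green tissue, 7 were higher in SRDX and 7 in KO, and *GLK1* was lower in SRDX, with summed signals of 1545 to 2634 in SRDX, 1996 to 2386 in KO and 1060 to 1155 in WT. Of 5 root markers tested, 1 was higher and 1 lower in SRDX, and 1 higher and 2 lower in KO. The summed root markers were 1.28 to 1.58 in SRDX, 1.18 to 2.20 in KO and 1.62 to 2.92 in WT. The part of tissue makeup and of the stage of senescence in the change of the ATG genes was not tested.

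In OX leaves at 50 DAS, more members were higher than lower on average, but none passed the limit. The lowest adjusted p-value of a member was 0.197, and over all features 0.092% were higher and 0.00484% lower. At an unadjusted p-value under 0.05, 2 members were higher and 3 lower, against 9.3% and 13.8% of all features. The means of 25 of 36 members (69.4%) were higher in OX than in WT, against 43.8% of all features, and the median log2 change was 0.18, against -0.08 over all features. All 3 OX lines lay above WT for 5 members (13.9% against 12.9% of all features) and below WT for 4 (11.1% against 21.1%). When Storey's q-values, which the study used, were put to the same limit, 15 members were higher and 5 lower in OX, against 24.6% and 34.5% of all features.

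The lines differed from each other. The median difference of the members from the WT mean was -0.09 in line 1, 0.25 in line 2 and 0.50 in line 3, and 8, 26 and 27 of the 36 members were above the WT mean. Line 1 was also the line with the lowest *ANAC046* signal, whose part in the result was not tested. Without line 1, 18 members rose and 4 fell in OX, against 25.8% and 31.3% of all features, whereas no member passed the limit when any other array of the experiment was left out. Those that fell were *ATG10*, *ATG12b*, *ATG18d* and AT5G50230. The changes without line 1 were 1.81 for *ATG7* (adjusted p = 0.00116), 1.81 for *ATG101* (adjusted p = 0.00169), 1.92 for *ATG8h* (adjusted p = 0.0102) and -0.93 for *ATG10* (adjusted p = 0.00508). This fit rests on only 2 OX lines.

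*ATG7* was 2.68, 4.37 and 4.26 in OX lines 1 to 3 and 2.51, 2.53 and 2.47 in WT. All lines were above WT, line 1 only slightly. The log2 change of *ATG7* was 1.27 (standard error 0.46, adjusted p = 0.203). *ATG18h* was 2.45, 3.0 and 3.1 in OX and 2.26, 2.28 and 2.17 in WT, a change of 0.61 (standard error 0.20, adjusted p = 0.197). *NBR1* was 7.88, 8.40 and 8.78 in OX and 7.76, 7.63 and 7.88 in WT, a change of 0.60 (standard error 0.25, adjusted p = 0.218). *ATG2* and AT3G59950 also had all lines above WT, with changes of 0.74 and 0.50.

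Members with all OX lines below WT were *ATG10*, *ATG12b*, *ATG18d* and AT5G50230. *ATG10* was 2.29, 1.46 and 1.46 in OX and 2.32, 2.40 and 2.45 in WT, a change of -0.65 (standard error 0.26, adjusted p = 0.210). *ATG12b* was 1.35, 1.33 and 0.86 in OX and 1.69, 1.62 and 1.63 in WT, a change of -0.46 (standard error 0.18, adjusted p = 0.207). *ATG10* and *ATG12b* belong to the same branch of the conjugation machinery, in which *ATG10* joins ATG12 to ATG5. AT5G50230 was 4.39, 3.96 and 4.11 in OX and 4.6, 4.5 and 4.51 in WT, a change of -0.38 (standard error 0.16, adjusted p = 0.216).

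In the *ATG8* family, the changes in OX were 1.23 for *ATG8h*, 0.45 for *ATG8g*, 0.40 for *ATG8a*, 0.31 for *ATG8b*, 0.12 for *ATG8f*, -0.06 for *ATG8i*, -0.12 for *ATG8c*, -0.16 for *ATG8d* and -0.29 for *ATG8e*. None passed the limit, and every one overlapped with WT. *ATG8h* was 3.04, 5.58 and 4.6 in OX lines 1 to 3 and 3.25, 3.09 and 3.18 in WT, so that line 1 was below WT and lines 2 and 3 were well above it. *ATG8e* differed between lines too, at 4.63, 5.57 and 4.16 in OX against 5.03, 5.09 and 5.12 in WT. Among members with a symbol, the changes in the initiation complex ranged from 0.53 for *ATG13a* to 1.16 for *ATG101*. Those in membrane delivery ranged from -0.41 for *ATG18d* to 0.74 for *ATG2*, and those in conjugation from -0.65 for *ATG10* to 1.27 for *ATG7*. *ATG6* changed by 0.02, and the loci without a symbol ranged from -0.38 for AT5G50230 to 1.18 for AT3G61960. AT3G61960 was 3.91, 5.65 and 5.87 in OX and 4.03, 3.85 and 4.03 in WT.

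The marker lists were set beside these values, and no marker tested passed the limit in OX (5 senescence, 8 green tissue and 1 root marker tested). At an unadjusted p-value under 0.05, 3 senescence markers were higher and 1 lower, and 1 green tissue and 1 root marker were higher. The summed senescence markers were 234 to 685 in OX and 203 to 248 in WT. The summed green tissue markers were 9293 to 10584 in OX and 9986 to 10103 in WT, and the root markers 1.35 to 5.05 in OX and 1.07 to 1.23 in WT. The green tissue sum rests mostly on the brightest markers. Of these, *LHCB1.3* had the same signal, 11.24, on all OX arrays and on the lowest WT array, so the sum can hide a difference. The part of these differences in the values of the ATG genes was not tested.

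Set beside each other, the OX comparison and the dark-treated comparisons share no array. A higher mean in OX and a lower mean in SRDX than in the matching WT were found for 23 of 36 members (63.9%), against 29.8% of the 19952 features tested in both, and for OX and KO for 22 of 36 members (61.1%), against 24.8%. Across the 36 genes, Pearson's r between the changes in OX and those in SRDX was -0.61 (Spearman's rho -0.58), and over all 19952 features it was -0.44 (rho -0.45). Between OX and KO it was -0.45 (rho -0.44) for the members and -0.36 (rho -0.34) for all features. Genes are not independent replicates, and the points share their arrays. *ATG7*, *ATG8h*, *ATG101* and *ATG18h* were higher on average in OX and past the limit downwards in SRDX and KO. *ATG18d* was lower than WT in all 3 genotypes on every array.

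Most members were higher in WT at 5 DAD than in WT at 50 DAS. Of the 36 tested, 28 were higher and 5 lower past the limit (77.8% against 45.9% of all features, and 13.9% against 40.2%). All arrays at 5 DAD lay above those at 50 DAS for 28 members and below them for 5 (43.5% and 39% of all features), and 30 members had a higher mean (53.4% of all features). Counts at an unadjusted p-value under 0.05 were also 28 and 5 (42.7% and 38.1% of all features). With Storey's q-values all 25949 features passed the limit (53.4% higher and 46.6% lower). The 30 members higher and 6 lower under them therefore only gave the signs of the means. The median log2 change was 1.13, against 0.13 over all features. These groups differed in darkness, age, growth medium, labelled tissue, slide and scan day, which cannot be told apart. The 8 green tissue markers were all lower at 5 DAD and the 6 senescence markers all higher, with summed signals of 1060 to 1155 at 5 DAD against 9986 to 10103 at 50 DAS for green tissue and of 3238 to 3651 against 203 to 248 for senescence. The summed root markers were 1.62 to 2.92 at 5 DAD and 1.07 to 1.23 at 50 DAS.

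*ATG8h* had the largest change of the tested members. Its signal was 8.32, 8.55 and 8.65 in WT at 5 DAD and 3.25, 3.09 and 3.18 in WT at 50 DAS, a 40.3-fold difference (log2 change 5.33, standard error 0.11, adjusted p = 3.7e-07). *ATG8e* was 9.18, 9.51 and 9.45 at 5 DAD and 5.03, 5.09 and 5.12 at 50 DAS (log2 change 4.30, standard error 0.11, adjusted p = 5.9e-07). In both, the arrays of a group lay close together and the groups were far apart. *ATG8b* was 4.84, 4.95 and 4.97 at 5 DAD and 1.29, 1.39 and 1.71 at 50 DAS, and *ATG8a* was 7.61, 7.73 and 7.68 against 4.77, 4.62 and 4.93. Their log2 changes were 3.45 (standard error 0.13, adjusted p = 1.9e-06) and 2.90 (standard error 0.11, adjusted p = 1.7e-06). All 9 *ATG8* genes were past the limit, with 1.55 for *ATG8d*, 1.34 for *ATG8i*, 0.72 for *ATG8c*, 0.70 for *ATG8g* and 0.35 for *ATG8f*. The family thus held changes between 1.27-fold and 40.3-fold.

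*ATG7* was 6.36, 6.56 and 6.41 in WT at 5 DAD and 2.51, 2.53 and 2.47 in WT at 50 DAS, a 15.4-fold difference (log2 change 3.94, standard error 0.09, adjusted p = 4.1e-07). Of the other conjugation genes, *ATG3* and *ATG12a* were higher, by 1.57 and 1.41, and *ATG10*, *ATG12b* and *ATG5* were lower, at -1.23, -0.59 and -0.42. The conjugation genes with a symbol therefore moved in both directions, 3 higher and 3 lower.

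*ATG9* was 3.57, 3.58 and 3.43 in WT at 5 DAD and 0.93, 1.05 and 0.82 in WT at 50 DAS (log2 change 2.59, standard error 0.10, adjusted p = 1.9e-06). *ATG18f* was 4.76, 4.94 and 4.77 at 5 DAD and 2.55, 2.56 and 2.49 at 50 DAS (log2 change 2.29, standard error 0.09, adjusted p = 2.0e-06). *ATG18h* was 4.38, 4.44 and 4.30 at 5 DAD and 2.26, 2.28 and 2.17 at 50 DAS (log2 change 2.14, standard error 0.08, adjusted p = 2.2e-06). These were among the genes that were lower in SRDX and KO than in dark-treated WT, a comparison that shares the WT arrays at 5 DAD with this one. In membrane delivery 6 of 8 tested genes were higher, *ATG2* did not pass the limit at 0.15, and *ATG18g* was lower at -0.24. The initiation genes *ATG101*, *ATG11* and *ATG13a* were higher by 2.28, 1.37 and 1.19, *ATG6* by 0.91 and *NBR1* by 1.82. Of the loci without a symbol, 5 were higher, up to 1.33 for AT2G44140, AT2G37840 was lower at -0.29, and AT1G49180 and AT5G50230 did not pass the limit.

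**Figure D5:**
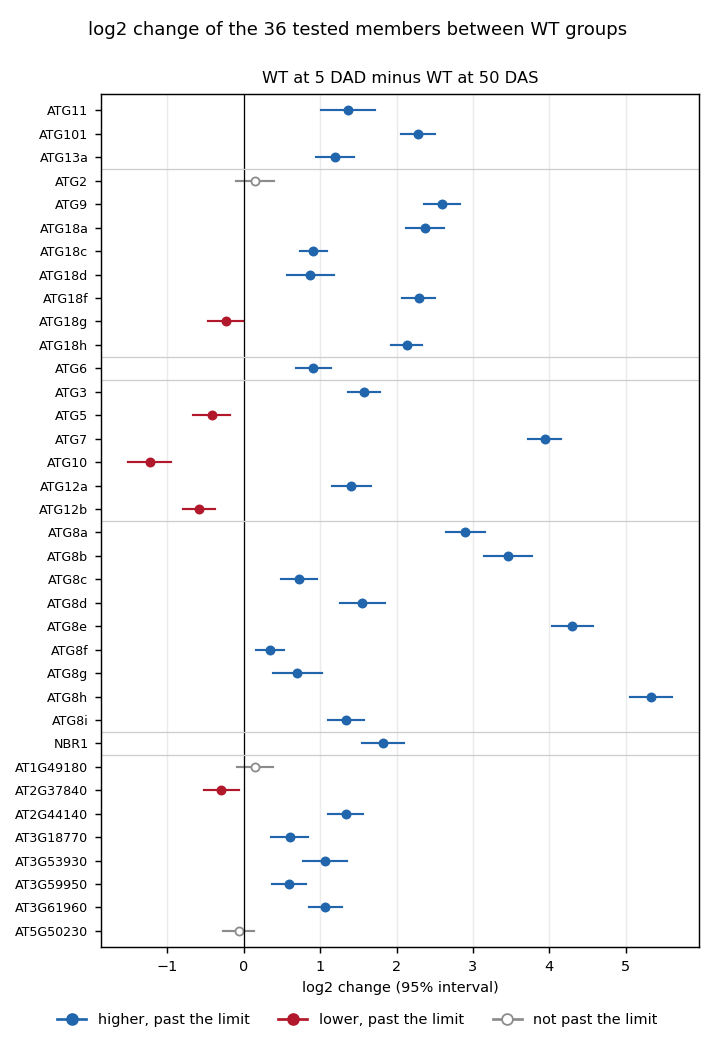
Log2 change of the 36 tested members (rows, grouped by role) in WT at 5 DAD minus WT at 50 DAS, with 95% intervals (n = 3 arrays each). Filled points are past the limit, 28 higher and 5 lower, and *ATG8h* lies farthest to the right at 5.33.

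A further 29 genes that act with the autophagy machinery were counted for comparison. They comprised upstream kinases, partners of the lipid kinase, receptors and genes of delivery to the vacuole, and all 29 were tested. In SRDX, 1 rose and 5 fell, and in KO, 1 rose and 5 fell, with median log2 changes of -0.35 and -0.21. Over all features, 11.6% were higher and 8.8% lower in SRDX, and 18.1% higher and 14.2% lower in KO, so that the 5 of 29 in KO were near the share of all features. The gene that rose in both was *TSPO*, which encodes a membrane protein induced by abscisic acid that is degraded by autophagy, at 1.57 in SRDX (adjusted p = 0.0131) and 1.19 in KO (adjusted p = 0.0161). AT1G77890 fell most, by 1.34 in SRDX (adjusted p = 0.0192) and by 1.40 in KO (adjusted p = 0.0147) on the log2 scale. *RAPTOR1A*, a partner of the TOR kinase, which restrains autophagy, fell by 1.3 in SRDX (adjusted p = 0.0464) and by 1.23 in KO (adjusted p = 0.0399). Next came *VPS34*, the lipid kinase bound by ATG6, in SRDX at -0.80 (adjusted p = 0.108) and *RAPTOR1B* in KO at -1.09 (adjusted p = 0.145). Neither in SRDX against KO nor in OX did any of the 29 pass the limit. At an unadjusted p-value under 0.05, none was higher and 2 were lower in SRDX against KO, and 2 were higher and 2 lower in OX. The shares of all features were 4.81% and 7.16% in SRDX against KO and 9.3% and 13.8% in OX, so these counts did not exceed them. In WT at 5 DAD against WT at 50 DAS, 18 rose and 5 fell (45.9% and 40.2% of all features), led by AT1G77890 at 2.67, *KIN11*, a catalytic subunit of the SnRK1 energy-sensing kinase, at 1.57 and *VPS15*, which regulates VPS34, at 1.31. The largest decreases among them were those of *VPS41*, a subunit of a vacuolar tethering complex, at -1.38, of *KIN10*, the other SnRK1 catalytic subunit, at -0.47, and of *LST8-1*, a TOR complex subunit, at -0.45.

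Of the members, 15 had more than 1 probe, with 22 further probes in all, each dimmer than the probe used. Their changes had the sign of the probe used for 21 of 22 in SRDX against WT, 19 in KO, 17 in OX, 14 in SRDX against KO and all 22 in WT at 5 DAD against 50 DAS. The second probe of AT2G44140 gave 0.23 in SRDX and 0.14 in KO, where the one used gave -0.54 and -0.35. The second probe of *ATG13a* gave -0.60 in SRDX and -1.47 in KO, larger than the -0.37 and -0.24 of the probe used. The second probes of *ATG8e* and *ATG8a* gave nearly the same changes as the first in KO, at -1.87 and -1.19.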

How the data were processed

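RNA of 15 samples was hybridized to one-color Agilent Arabidopsis arrays of 43803 spots. The deposited scanner files hold intensity values made by the authors with Agilent Feature Extraction (version 11.5.1.1 per the file headers, 9.1.3.1 in the submitters' processing notes), namely background-subtracted spot signals and flags. After the methods, spots with outlier flags were dropped, each array was divided by its median over the remaining spots, repeat spots were averaged and the 15 arrays were quantile normalized together before log2. The deposited table of normalized values by the authors, read from the data as natural log and normalized with other arrays of that group, served as an alternative. Its log base is not given in the sources used here, and every column has a median of -0.493486.

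Of 43603 probes, 34348 (78.8%) matched 25410 loci through accessions in the TAIR10.1 table, and the brightest probe represented a locus. Features well above background on every array of a group were tested with limma 3.58.1 in R 4.3.3, in separate fits for 50 DAS (20647 features), 5 DAD (25463) and both WT groups (25949), with Benjamini-Hochberg adjustment and a limit of 0.15. No paired term entered these fits. Figures were drawn with matplotlib 3.10.9.

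The members and lists were chosen with earlier results of these data known. Values on each array are given for members past the limit with the smallest p-values (up to 8 per comparison, or the 6 smallest where fewer than 6 passed) and for some others singled out after their values were seen. The *ATG8* family and *NBR1* are given throughout, the others by counts and class ranges. In data simulated with 200 changed features, a log2 change of 1 was found for 54 in the OX design, 79 in the KO design and 127 in the WT design, and a log2 change of 2 for 170, 167 and 181. Unchanged features called beside them numbered 21, 22 and 26 at a log2 change of 1, and 30, 51 and 25 at 2. The simulated noise was independent between features and between arrays. Alternatives were 75th percentile scaling, normalization within each experiment, normexp background correction (offset 50, on median spot signals), kept outlier spots, other filters on dim probes, the mean of all probes, Storey's q-values, a limit of 0.05, 1 fit of 15 arrays, the slide as a random block, the replicate block and each array left out. No nucleotide sequences were used here.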

Additional observations from a re-analysis of the deposited data

How the results depend on the processing

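The direction of the member medians held under all alternatives run except in SRDX against KO, where it lies near 0. Counts of members past the limit were less stable. In KO against WT, 8 of 16 remained at a limit of 0.05, and leaving out an array gave 7 to 17, with 7 without WT replicate 2 and 10 without WT replicate 1, WT replicate 3 or KO replicate 3. Without these arrays, 1242, 1835, 1670 and 2031 of 25500 to 26386 features were lower, in that order, against 3610 with all arrays. In SRDX against WT, 7 of 14 remained at 0.05, and leaving out an array gave 5 to 20, with 6, 5 and 7 without WT replicates 1 to 3, 8 without SRDX line 3 and 20 without SRDX line 2. Without these arrays, 547, 334, 672, 751 and 4659 of 25589 to 26386 features were lower, in that order, against 2241 with all arrays. In OX against WT, the count of 0 became 9 (7 higher and 2 lower) in 1 fit of 15 arrays, with 2432 higher and 3298 lower of 20647 features. It became 20 with Storey's q-values and 0 to 22 with an array left out, the 22 being without OX line 1. In SRDX against KO, the count of 0 became 1 with Storey's q-values and 0 to 6 with an array left out. In WT at 5 DAD against 50 DAS the count was 33 to 34 with an array left out, and with Storey's q-values every member passed. The calls kept whichever array was left out were 7 of 16 in KO (*ATG101*, *ATG11*, *ATG18a*, *ATG18h*, *ATG7*, *ATG8h* and *ATG9*), 5 of 14 in SRDX (*ATG101*, *ATG11*, *ATG18d*, *ATG7* and *ATG8h*) and 32 of 33 in WT, where *ATG18g* was lost without WT replicate 3 at 5 DAD (adjusted p = 0.159 by limma). The causes were not tested.

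The member median in KO was -0.42 with the authors' table and -0.65 with the mean of all probes, and -0.56 to -0.42 with an array left out. That in SRDX was -0.58 to -0.40 and that in OX 0.08 to 0.30 with an array left out. In SRDX against KO it was -0.25 within the slide that held both and -0.12 to 0.05 with an array left out, and in the WT comparison 1.27 with the mean of all probes and 1.08 to 1.19 with an array left out. Scaling to the 75th percentile moved the median of all features by -0.10 in KO and 0.14 in the WT comparison, and the share of higher calls among all features to 40.5% in KO, against 56.1% before. In SRDX against KO that share was 74.7% under this scaling and 20.8% with normexp, against 52.9%. Relative to the median of all features, the members were at -0.38 in SRDX, -0.41 in KO, 0.26 in OX and 0.91 in the WT comparison under 75th percentile scaling, with 13, 15, 0 and 33 past the limit. Over all features, 2402 were then higher and 1677 lower in SRDX, and 3746 and 5495 in KO. In OX the counts were 49 and 7, and in the WT comparison 13112 and 9921. The slide could not be fitted as a random block in OX against WT or in the WT comparison, where each group had a slide of its own.

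Replicate numbers did not pair the samples in comparisons with WT at the same stage, where correlations of same-numbered arrays ran from -0.26 to 0.13. Between SRDX and KO these were 0.21, 0.61 and -0.12, against -0.54 to 0.40 for unlike-numbered arrays, and pairing there was not settled. With the replicate block, 16 members were past the limit in SRDX, 15 in KO, 0 in OX, 0 in SRDX against KO and 33 in the WT comparison. Over all features, 3152 were then higher and 2481 lower in SRDX, and 4865 and 3818 in KO. The counts were 0 and 0 in OX, 8 and 3 in SRDX against KO, and 11921 and 10433 in the WT comparison.

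Members with small changes turned sign. With each array left out, *ATG8b* in OX ran from -0.0329 (without OX line 2) to 0.762, *ATG8e* from -0.686 to 0.0192 (without OX line 3) and *ATG8i* from -0.143 to 0.0567 (without OX line 1), and *ATG8f* was -0.00103 with 75th percentile scaling. In KO, *ATG8f* ran from -0.142 to 0.0145 (without KO replicate 2) and was 0.115 with 75th percentile scaling, and *ATG8g* ran from -0.111 (without KO replicate 1) to 0.209 and was -0.0170 with the slide block. In SRDX, *ATG8c* ran from -0.0566 (without SRDX line 3) to 0.163, *ATG8d* from -0.235 to 0.0982 (without SRDX line 2), *ATG8g* from -0.0215 (without SRDX line 3) to 0.349 and *ATG8i* from -0.286 to 0.00306 (without SRDX line 2), and *ATG8f* was 0.0929 with 75th percentile scaling. In SRDX against KO, *ATG8f* ran from -0.0662 (without KO replicate 2) to 0.0906, *ATG8g* from -0.0913 (without KO replicate 2) to 0.339 and *NBR1* from -0.662 to 0.172 (without KO replicate 2). *ATG8f* in that comparison was also -0.0217 with 75th percentile scaling, -0.000957 with quantile normalization within each experiment, -0.00932 with normexp and -0.00229 with the slide block. Of the other values of single genes under alternatives, 1426 kept their direction and side of the limit, 40 passed it anew and 27 no longer passed it. The median signal over background was at least 5.17 on every array.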
